A study of Homo sapiens with 6 samples.

Results

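TXNIP and ARRDC4, 2 genes of the alpha-arrestin family, were examined in H460 cells after knockdown of the lincRNA HKlincR1, together with their closest relatives (ARRDC1, ARRDC2 and ARRDC3) and with the transcription factors of the MondoA axis (MLXIP, MLX and MLXIPL). These 8 genes were taken from the 57773 genes of the deposited expression table by gene identifier. TXNIP and ARRDC4 were chosen by their large difference between the groups in these same libraries, so that difference is described below without a test. The other 6 were chosen by family or pathway, and their differences were tested. ARRDC5, the remaining gene named for this family, was listed at 0 in all 6 libraries.

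H460, a non-small-cell lung cancer line of human origin, was grown here in RPMI-1640 medium with fetal bovine serum. All 6 libraries came from H460 cells transfected with 50 nM siRNA by lipofection and collected after 48 hours: 3 with a non-targeting control (siNT) and 3 with siHKlincR1_2, which targets HKlincR1 (AC093323.3), a long intergenic noncoding RNA. A single targeting siRNA was sequenced, so effects of the target and of this siRNA cannot be told apart. Values are RPKM, reads per kilobase of gene model scaled to library size, which correct for gene length and depth. The libraries held 24980280 to 30521000 reads. HKlincR1 itself had 3.62, 3.47 and 3.83 RPKM with siNT replicates 1 to 3 and 0.563, 0.628 and 0.390 RPKM with siHKlincR1, a mean 85.5% lower (p = 0.10 by an exact permutation test, two-sided, the lowest value possible with 3 against 3). Of the markers of an epithelial line, KRT8, KRT18 and KRT19 were at 28.1 RPKM or above in every library, whereas EPCAM and CDH1 stayed at or below 0.110 RPKM. Of the 6 markers of blood, endothelial and fibroblast cells found by name, COL1A1 was between 0.419 and 1.23 RPKM and the others were at or below 0.0691 RPKM.

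MondoA (encoded by MLXIP) and its relative ChREBP (MLXIPL) are glucose-sensing transcription factors. They enter the nucleus when glucose 6-phosphate accumulates, pair with MLX, and bind paired E-boxes called carbohydrate response elements. TXNIP and ARRDC4 are the best known MondoA targets. Their products are adaptors with an arrestin fold: TXNIP binds thioredoxin and, like ARRDC4, limits glucose uptake, while ARRDC1 to ARRDC4 recruit NEDD4-family ubiquitin ligases to membrane proteins.

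The carbohydrate response element of TXNIP is shown because this axis is known to act through it. The single E-boxes found by a text search in the ARRDC4 and MLX windows are shown beside it. Whether MondoA or ChREBP bind those E-boxes was not tested. These sequences were read from the RefSeq promoter windows of GRCh38.p14, which run from 250 bases before to 50 bases after each start site. They are written 5′ to 3′ on the strand of the gene with the motif in capitals. The coordinates are of that build, whereas the expression table was made on GRCh37, in which the TXNIP region has the opposite orientation.
TXNIP, chr1:145996645-145996673, minus strand: gatgtgCACGAGggcagCACGAGcctccg
ARRDC4, chr15:97960481-97960510, plus strand: aaacggcctgtgCACGTGcacgccggagcc
MLX, chr17:42567038-42567067, plus strand: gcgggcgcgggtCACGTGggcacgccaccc

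The TXNIP window held 2 copies of CACGNG spaced 5 bases apart, beginning 88 bases before the start site. This arrangement, searched on both strands, was found in 20 of 35116 promoter windows (0.0570%) and in no other window of the 8 genes. The search took only the form seen in TXNIP, with both copies in the same orientation. Other forms of a carbohydrate response element were not searched, so their absence from the other windows is not shown. The ARRDC4 window held a single E-box (CACGTG, its own reverse complement) 210 bases before the start, and the MLX window held one 50 bases before the start. An E-box was present in 7.26% of all windows. CCAAT, the box bound by NF-Y, was found on either strand 3 times in the ARRDC4 window and 2 times in one of the TXNIP windows. A single copy was found in a window of each of ARRDC1, ARRDC2, ARRDC3, MLXIP and MLX. At least 3 copies were present in 3.26% of windows, at least 2 in 10.8% and at least 1 in 34.6%. A match of letters is a description of these windows and is no measurement of binding.

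The guide strand of siHKlincR1_2, with positions 2 to 8 in capitals, is shown because an siRNA can lower other transcripts through a match of this seed.
siHKlincR1_2 guide: aAGCACACgaguauacuuc
The matching site, GTGTGCT, was absent from the annotated 3′ UTRs of TXNIP, ARRDC4, ARRDC1, ARRDC2, ARRDC3, MLX and MLXIPL. Among tested genes whose 3′ UTR was read, 1513 of 10766 held it (14.1%). The 3′ UTR of MLXIP was not analysed here.

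TXNIP lies on chromosome 1 from 145438490 to 145442635 on the plus strand (GRCh37). It had 31.8, 29.4 and 9.10 RPKM with siNT replicates 1, 2 and 3, and 132, 134 and 36.5 RPKM with siHKlincR1 replicates 1, 2 and 3. Replicates 1 and 2 lay close together within each group, and replicate 3 was the lowest library of both groups. The lowest siHKlincR1 library was nonetheless above the highest siNT library. These values rest on 824 to 14047 reads per library, so counting error is small beside the gaps between libraries.

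Mean TXNIP was 23.4 ± 12.5 RPKM with siNT and 101 ± 55.7 RPKM with siHKlincR1 (SD, n = 3). The difference in log2(RPKM + 0.1) was 2.07 with a standard error of 0.64. Between libraries of the same replicate number the difference was 2.05, 2.18 and 1.99, ratios of 4.14, 4.55 and 4.01 in RPKM. The ratio was therefore nearly the same in the third pair, where both libraries were low, as in the first and second. Blocking on the replicate number brought the standard error to 0.06. The ratio of geometric means was 4.21-fold, and 4.33-fold without both replicate 3 libraries. It was 2.82-fold without siNT replicate 3 alone and 6.47-fold without siHKlincR1 replicate 3 alone. By its mean level TXNIP was the 2192nd highest in siNT cells of the 15451 genes that averaged 0.5 RPKM or more, and the 390th in siHKlincR1 cells. Whether all cells held more TXNIP RNA or more cells expressed it cannot be told apart in bulk libraries.

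ARRDC4, on chromosome 15 from 98503933 to 98517063 (plus strand), had 2.10, 2.04 and 1.23 RPKM with siNT and 6.60, 6.94 and 2.36 RPKM with siHKlincR1 in replicates 1, 2 and 3. The same order as for TXNIP was seen, with replicate 3 lowest in both groups and no overlap between the groups, although the lowest siHKlincR1 value was close to the highest siNT value. The difference in log2(RPKM + 0.1) was 1.40 (standard error 0.42, or 0.18 with the replicate block). By pair it was 1.61, 1.72 and 0.88, and the ratio of RPKM was 3.15, 3.40 and 1.91. In contrast to TXNIP, the third pair thus showed a smaller difference than the other two. The geometric mean ratio of 2.64-fold was 3.16-fold without both replicate 3 libraries. Of all 15451 tested genes, 22.0% had groups that did not overlap in either direction, and since TXNIP and ARRDC4 were selected on this contrast, nothing is read from their place among them.

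**Figure D1:**
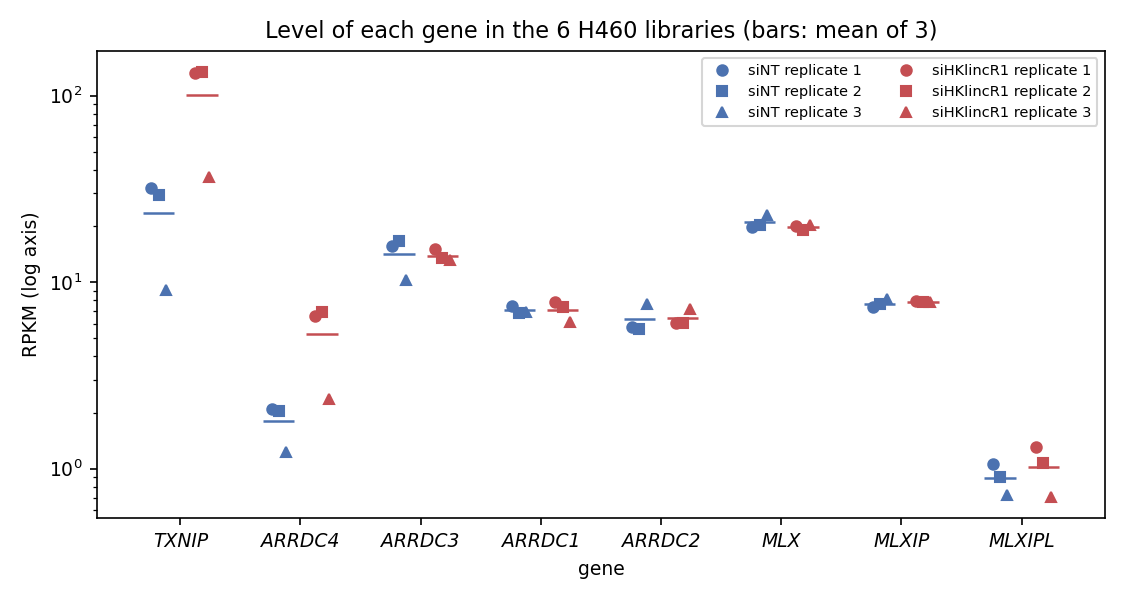
RPKM on a log axis for the 8 genes in the 3 siNT (blue) and 3 siHKlincR1 (red) libraries, with circles, squares and triangles for replicates 1, 2 and 3 and bars for group means. TXNIP and ARRDC4 were higher in all siHKlincR1 libraries than in all siNT libraries and lowest in replicate 3 of each group, while the groups overlapped for the other 6 genes.

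None of the other 6 genes passed the test. This was limma on log2(RPKM + 0.1) over the 15451 genes, with a call at a Benjamini-Hochberg adjusted p under 0.05 and a fold above 1.5. Across all tested genes this called 1 gene higher (0.00647%) and 55 lower (0.356%) after knockdown. With the replicate block it called 79 higher (0.511%) and 125 lower (0.809%). For the 6 genes, the count of calls was 0 in both fits and 0 by voom on the reads worked back from RPKM, and none had an unadjusted p under 0.05 in any of the 3. The lowest adjusted p was 0.620 without the block and 0.435 with it, both for MLX. Groups overlapped for all 6.

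Among the other alpha-arrestins, ARRDC3, which is known to act on beta-adrenergic receptors and integrin beta 4, was the most abundant. It had 15.6, 16.6 and 10.3 RPKM with siNT and 15.0, 13.4 and 13.1 RPKM with siHKlincR1. The lowest value was siNT replicate 3, and the difference was -0.00 (95% confidence interval -0.42 to 0.41, limma adjusted p = 0.993). ARRDC1, which recruits ESCRT proteins to the plasma membrane and drives the budding of small vesicles, had 7.48, 6.80 and 6.89 RPKM with siNT and 7.82, 7.40 and 6.10 RPKM with siHKlincR1. Its difference was 0.00 (-0.25 to 0.25, limma adjusted p = 0.991), with the groups intermingled. ARRDC2 had 5.73, 5.60 and 7.68 RPKM with siNT and 6.01, 6.04 and 7.14 RPKM with siHKlincR1. Replicate 3 was its highest library in both groups, opposite to TXNIP, and the difference was 0.02 (-0.30 to 0.35, limma adjusted p = 0.943). These intervals exclude a difference of the size seen for TXNIP or ARRDC4.

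The antisense gene ARRDC1-AS1 overlaps ARRDC1. It had 10.3, 10.1 and 10.1 RPKM with siNT and 11.0, 11.1 and 11.6 RPKM with siHKlincR1. The libraries were strand-specific, but the sources used here do not state whether counting used the strand, so reads of such pairs may not be separated. The same holds for MLX, which PSMC3IP overlaps on the opposite strand.

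The transcription factors of the MondoA axis, MLXIP, MLX and MLXIPL, did not pass the test. MLXIP (MondoA) had 7.34, 7.60 and 8.09 RPKM with siNT and 7.92, 7.83 and 7.79 RPKM with siHKlincR1, a difference of 0.03 (95% confidence interval -0.13 to 0.20, limma adjusted p = 0.829). All 6 of its values lay within 1 RPKM of each other. MLX, the shared partner, had 19.8, 20.2 and 22.8 RPKM with siNT and 19.9, 19.0 and 20.3 RPKM with siHKlincR1. Its difference was -0.08 (-0.26 to 0.10, limma adjusted p = 0.620). MLXIPL (ChREBP), best known from liver and fat, was the lowest of the 8 genes, at 1.06, 0.905 and 0.723 RPKM with siNT and 1.30, 1.07 and 0.708 RPKM with siHKlincR1. With 87 to 178 reads per library its difference of 0.16 had the widest interval of the 6 (-0.43 to 0.74, limma adjusted p = 0.769). RNA levels do not report the nuclear entry through which these factors are regulated.

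**Figure D2:**
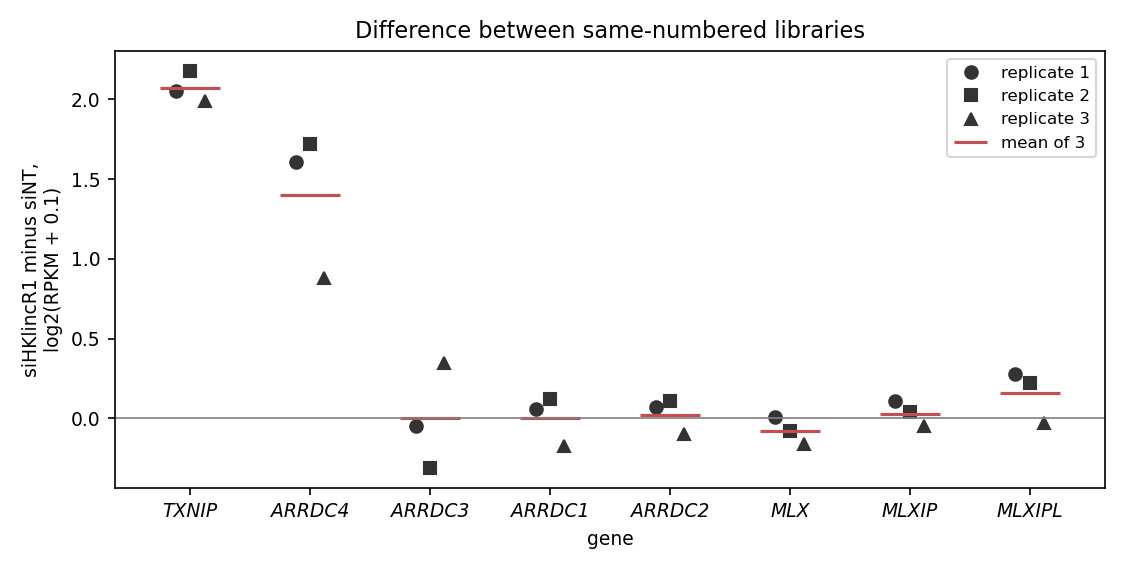
Difference in log2(RPKM + 0.1), siHKlincR1 minus siNT, between libraries of the same replicate number (circles, squares and triangles for replicates 1, 2 and 3), with the mean of the 3 as a red bar. TXNIP lay between 1.99 and 2.18 and ARRDC4 between 0.88 and 1.72, while each pair of the other 6 genes lay between -0.31 and 0.35.

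In siNT cells the order of mean RPKM was TXNIP (23.4), MLX (20.9), ARRDC3 (14.1), MLXIP (7.67), ARRDC1 (7.06), ARRDC2 (6.34), ARRDC4 (1.79) and MLXIPL (0.894). The ranges of TXNIP and MLX overlapped, as did those of MLXIP and ARRDC1 and of ARRDC1 and ARRDC2. The other neighbours in this order were separate in all 3 libraries. Of genes further apart in the order, TXNIP also overlapped ARRDC3, and MLXIP overlapped ARRDC2. In siNT replicate 3, TXNIP (9.10 RPKM) was below both MLX (22.8) and ARRDC3 (10.3). MLXIP exceeded MLXIPL 6.09-fold to 11.2-fold in every library. TXNIP made up 50.7%, 48.7% and 25.9% of the summed RPKM of the 5 alpha-arrestins with siNT in replicates 1, 2 and 3, and 78.8%, 79.9% and 56.0% with siHKlincR1. Its RPKM was 7.37 to 15.2 times that of ARRDC4 with siNT and 15.5 to 20.0 times with siHKlincR1.

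The low level in replicate 3 does not depend on the contrast between siRNAs, since it was measured within each group. For TXNIP, log2(RPKM + 0.1) in replicate 3 minus the mean of replicates 1 and 2 was -1.74 with siNT and -1.86 with siHKlincR1, which in RPKM left 0.297 and 0.275 of the mean of the other two. The gap between replicates 1 and 2 was 0.11 and 0.02. For ARRDC4 the same difference was -0.70 and -1.48. Among the 15451 tested genes, TXNIP held the 60th and 49th lowest of these differences and ARRDC4 the 502nd and 90th lowest, while the median gene was at -0.01 and -0.00. The other members showed no such shared drop of this size. MLXIPL was lower in replicate 3 of both groups (-0.39 and -0.66), ARRDC3 mainly with siNT (-0.64 and -0.12), and ARRDC2 was higher in both (0.43 and 0.24).

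**Figure D3:**
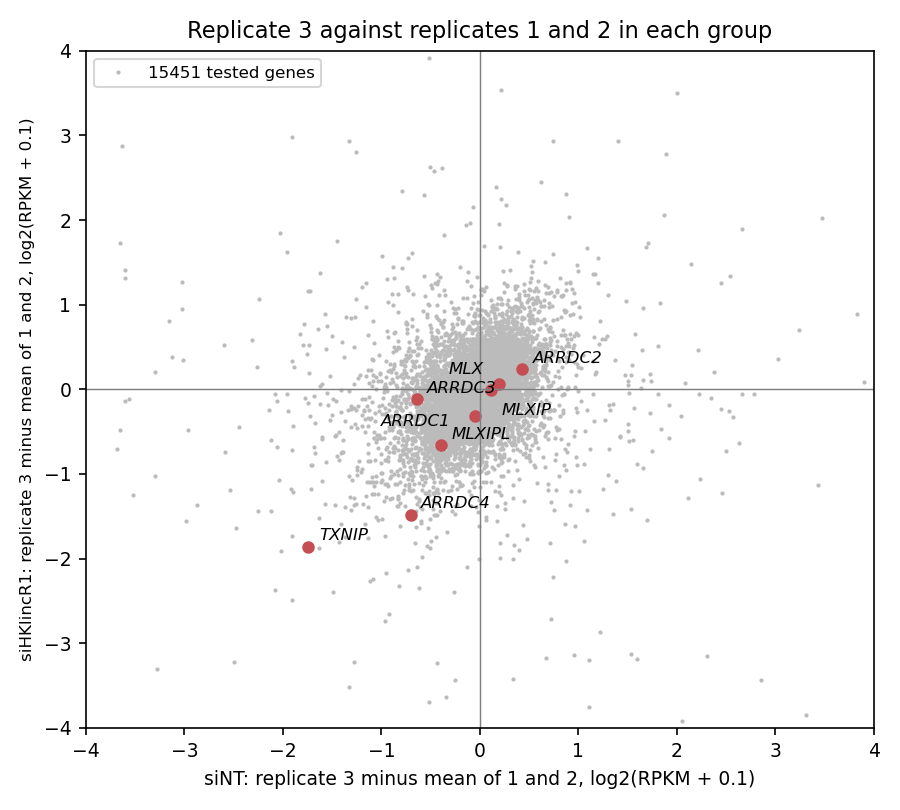
Each grey point is 1 of the 15451 tested genes, placed by replicate 3 minus the mean of replicates 1 and 2 in log2(RPKM + 0.1), with siNT on the x axis and siHKlincR1 on the y axis. The 8 genes are in red, and 5 genes beyond the drawn range are left out. TXNIP, at -1.74 and -1.86, and ARRDC4, at -0.70 and -1.48, lie in the lower left, away from most genes.

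A drop of at least 1 in both replicate 3 libraries was seen for 61 of the 15451 genes (0.395%). Of these, 12 had a mean of at least 5 RPKM, a cut chosen after the values were seen. TXNIP was among them, beside IL1A, ADM2, ASNS, IL24, TNFSF18, NPIPA5, PCK2, DUSP5, CBS, DDIT3 and 1 identifier without a symbol. NPIPA5 has near-identical copies in the genome, so its values are uncertain. ASNS, which makes asparagine, had 43.5, 43.4 and 14.5 RPKM with siNT and 96.1, 109 and 39.7 RPKM with siHKlincR1. DDIT3, a stress-induced transcription factor also called CHOP, had 25.6, 24.4 and 11.5 RPKM with siNT and 45.1, 52.3 and 22.6 RPKM with siHKlincR1. IL24, a cytokine gene, shared the drop but not the direction between siRNAs, with 9.03, 7.70 and 3.18 RPKM with siNT and 4.39, 5.00 and 1.72 RPKM with siHKlincR1. The identifier without a symbol also had a difference below 0 (-0.47). Its values were uneven, at 50.9, 87.3 and 11.8 RPKM with siNT and 15.5, 102 and 12.6 RPKM with siHKlincR1. Its drop with siHKlincR1 therefore rests mainly on replicate 2. What set replicate 3 apart is not given in the labels and was not tested.

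Genes whose levels followed TXNIP most closely over the 6 libraries, by Pearson correlation of log2(RPKM + 0.1), were AJUBA (r = 0.9994), PIGL (0.9983), TSEN15 (0.9979), ZNF197 (0.9978) and RSL24D1 (0.9972). Their range was far smaller. AJUBA had 7.20, 7.13 and 5.36 RPKM with siNT and 10.2, 10.0 and 7.38 RPKM with siHKlincR1. For ARRDC4 they were the gene listed as ENSG00000138041 (0.9984), IARS1 (0.9980), GART (0.9980), MID1IP1 (0.9977) and MYC (0.9975). TXNIP and ARRDC4 had r = 0.981 with each other. With 6 libraries such values are common: 530 genes (3.43%) had r of at least 0.95 with TXNIP and 529 (3.42%) with ARRDC4. The correlation describes a shared order of the same libraries, to which both the siRNA and the low replicate 3 contribute.

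Other genes that MondoA or ChREBP are known to drive lay on both sides of 0. Of 19 such genes listed, 18 were found by name and 11 were expressed enough to be tested. Their median difference was -0.30, against 0.00112 over all tested genes. The 3 above 0 were HK2, KLF10 and RGS16. The 8 below were PFKFB3, LDHA, FASN, ACACB, ACLY, ELOVL6, SCD and KHK. The list was not split by factor, so its median does not describe MondoA targets alone. None of the 11 was called without the block. With the replicate block 1 was called higher and none lower. The called gene was RGS16, a regulator of G-protein signalling, with 4.65, 4.85 and 3.99 RPKM with siNT and 6.85, 9.05 and 5.76 RPKM with siHKlincR1. Its groups did not overlap, and its difference was 0.65 (standard error 0.17, limma adjusted p = 0.178, and 0.0444 with the replicate block). KLF10, another gene that MondoA can induce, stood at 0.41 (limma adjusted p = 0.352 without and 0.0508 with the block).

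Of the 8 genes of that list below 0, SCD and LDHA passed an adjusted p under 0.05 with the block, without the cut on fold. The share of all tested genes that passed this looser rule was not worked out, so nothing is read from the count. SCD, the stearoyl-CoA desaturase, had 178, 180 and 165 RPKM with siNT and 129, 114 and 133 RPKM with siHKlincR1, a difference of -0.47 (standard error 0.08, limma adjusted p = 0.0760 without and 0.0475 with the block). LDHA, lactate dehydrogenase A, had 275, 276 and 290 RPKM with siNT and 215, 204 and 246 RPKM with siHKlincR1, a difference of -0.34 (limma adjusted p = 0.168 without and 0.0493 with the block). The groups did not overlap for either gene, but neither difference reached 1.5-fold. FASN, the fatty acid synthase, was lower in the first and second pairs (-0.53 and -0.80) and not in the third (0.03), with a limma adjusted p of 0.332. HK2, the hexokinase, was at 0.17 (limma adjusted p = 0.426). The liver genes PKLR, SLC2A2 and G6PC1 were at or below 0.0132 RPKM in every library and were not tested.

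In the network of E-box factors around MYC, MAX and MLX, 9 of 10 genes were tested, with a median difference of 0.30 and 7 of 9 above 0. No gene was called without the block. MYC, which competes with MondoA at some E-boxes and pairs with MAX, had 111, 114 and 93.5 RPKM with siNT and 185, 187 and 116 RPKM with siHKlincR1. All siHKlincR1 libraries were above all siNT libraries, and MYC was also lowest in replicate 3 of each group. Its difference was 0.59 (standard error 0.19, limma adjusted p = 0.237), and it was called with the replicate block (adjusted p = 0.0493). MXD1, a MAX partner that represses, was at 0.49 (limma adjusted p = 0.498), and MYCL was at 0.48 (limma adjusted p = 0.480).

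TXNIP is named for its binding of thioredoxin. All 14 genes of the thioredoxin and peroxiredoxin list were tested, with a median of 0.04, and none was called without the block. TXNRD1, the cytosolic thioredoxin reductase, had 350, 337 and 265 RPKM with siNT and 222, 227 and 166 RPKM with siHKlincR1. It was lower in every siHKlincR1 library, by -0.63 (standard error 0.15, limma adjusted p = 0.167), and was called lower with the replicate block (adjusted p = 0.0138). Its pairs gave -0.66, -0.57 and -0.67, nearly constant as for TXNIP and opposite in sign. Thioredoxin itself (TXN) was at 0.05. GLRX, a glutaredoxin, was at 0.35 (limma adjusted p = 0.445) and SRXN1, which repairs peroxiredoxins, at 0.24 (limma adjusted p = 0.444).

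Glucose transporters and hexokinases, whose products decide how much glucose 6-phosphate forms, gave 8 tested genes of 12, a median of -0.17 and no call in either fit. SLC2A8 was at -0.45 (limma adjusted p = 0.106, and 0.0556 with the block), HKDC1 at 0.50 (limma adjusted p = 0.339) and SLC2A3 (GLUT3) at -0.35 (limma adjusted p = 0.310). SLC2A1 (GLUT1), a transporter that TXNIP is known to remove from the cell surface, was at -0.34.

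Of the NEDD4-family ligases and ESCRT proteins that work with alpha-arrestins, all 14 were tested, the median was 0.07 and none was called in either fit. SMURF2 was at 0.44 (limma adjusted p = 0.290, and 0.0467 with the block, below 1.5-fold), HECW1 at 0.44 (limma adjusted p = 0.242) and WWP2 at -0.29 (limma adjusted p = 0.196). ITCH, the ligase known to ubiquitinate TXNIP, was at 0.08. Among other proteins with an arrestin fold, 5 of 8 were tested with a median of -0.05 and no call. ARRB1 was at -0.36 (limma adjusted p = 0.414), and the retromer subunits VPS26A and VPS26B were at -0.07 and -0.05 (limma adjusted p = 0.566 and 0.749).

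AMPK, which phosphorylates TXNIP for degradation, and mTORC1 gave 11 tested subunits of 12, a median of 0.03 and no call in either fit. DEPTOR was at 0.26 (limma adjusted p = 0.566), PRKAB2 at 0.21 (limma adjusted p = 0.418) and AKT1S1 at -0.19 (limma adjusted p = 0.481). Of 8 other factors known at the TXNIP promoter, all were tested, the median was -0.02 and none was called. FOXO3 was at 0.40 (limma adjusted p = 0.356), KLF6 at -0.37 (limma adjusted p = 0.230) and FOXO1 at -0.24 (limma adjusted p = 0.237). The NF-Y subunits NFYA, NFYB and NFYC lay between -0.05 and 0.10.

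**Figure D4:**
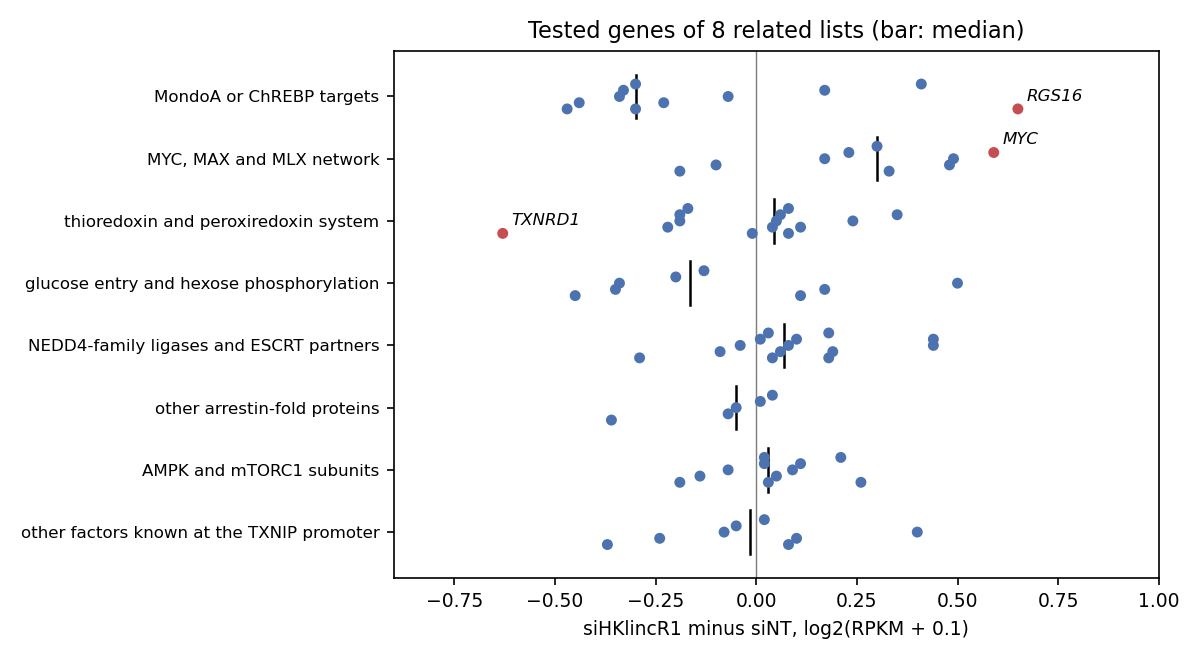
Difference in log2(RPKM + 0.1), siHKlincR1 minus siNT, for the tested genes of 8 lists around the MondoA axis, one point per gene and a bar at the list median. No gene was called without the replicate block, and the 3 red genes, RGS16 (0.65), MYC (0.59) and TXNRD1 (-0.63), were called with it.

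Over all lists 79 of 95 distinct genes were tested. The count of calls was 0 without the block by limma, and also 0 by voom. Without the block 14 of the 79 had an unadjusted p under 0.05 (17.7%), a share near that of all tested genes (2508 of 15451, 16.2%). With the replicate block 2 of the 79 were called higher and 1 lower, where 0.511% and 0.809% of all 15451 tested genes were called. These counts are too small to compare with those shares.

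Within 200000 bases of TXNIP, 13 genes of the table were placed by an identifier that GENCODE v44 holds. Of these, 8 were tested and none was called in either fit. Genes listed under other identifiers were not placed, so the 13 may not be all neighbours. ENSG00000181039, ENSG00000152022 and ENSG00000131795, listed between POLR3GL and GNRHR2, were tested but are not among the 13. The nearest of the 8, POLR3GL, a subunit of RNA polymerase III, begins 13601 bases beyond TXNIP. It had 11.4, 12.5 and 8.86 RPKM with siNT and 13.8, 13.8 and 11.3 RPKM with siHKlincR1 (difference 0.25, limma adjusted p = 0.404). NUDT17 was at 0.24, PIAS3 at -0.15 and POLR3C at -0.02, with limma adjusted p of 0.559, 0.434 and 0.914. The noncoding LINC01719 and the pseudogene GNRHR2 were at 0.20 and 0.12 (limma adjusted p = 0.583 and 0.824). RNVU1-6, a small nuclear RNA gene of 0.244 to 0.857 RPKM, had the largest difference of the 8 at 0.93 (limma adjusted p = 0.214 without and 0.0828 with the block). The gene is short (145382757 to 145382920), so these values rest on very few reads per library and nothing is read from the difference. The 8 genes placed in the same way within 200000 bases of ARRDC4 were at 0 in every library.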

How the data were processed

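Libraries were polyA, strand-specific and paired-end, 3 per group. The authors counted reads on Ensembl v74 models of GRCh37 (hg19) with featureCounts (Rsubread) and deposited RPKM. The submitters' notes also name CASAVA 1.8.2. Which aligner was used, and whether counting used the strand, is not given in the sources used here. Reads, gene lengths and library totals were worked back from the unrounded RPKM (100% of 31287 genes above 0 gave whole reads within 0.001 reads). Genes averaging 0.5 RPKM or more were tested with limma 3.58.1 (R 4.3.3) on log2(RPKM + 0.1) with a mean-variance trend. On simulated data, 83% of genes changed by 1 and 95% of those changed by 2 (log2) were called without the block. So were 10 unchanged genes. The simulated libraries had a small fixed spread and no shift between replicates, unlike replicate 3 here. These shares check the fit and do not give the power of the tests in these data.

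Members and lists were chosen with earlier results of these data known. Named genes are the 8 members, HKlincR1, in each list every gene called and the 3 with the largest difference, tested neighbours, and the 5 most correlated with TXNIP or ARRDC4. Others (SCD, LDHA, KLF10, FASN, HK2, TXN, SLC2A1, ITCH, NF-Y subunits, replicate 3 genes) were added after their values were seen where the rule did not name them. A gene named by the rule is not reported here. Symbols came from GENCODE v44. TXNIP is listed under the older identifier ENSG00000117289, paired with its name by the study's gene list, with a worked-back length of 3626 bases against 3594 annotated. The labels call the libraries biological replicates. Same-numbered libraries deviated together from their group means (correlations 0.142, 0.137 and 0.266, each the highest of its library), so the replicate number was used as a block in an alternative fit. The pairing was clear only for replicate 3, since siNT replicate 1 and siHKlincR1 replicate 2 had a correlation of 0.113. Other alternatives changed the pseudocount, filter, scaling, trend and test, and left out libraries.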

Additional observations from a re-analysis of the deposited data

How the results depend on the processing

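The difference of TXNIP ranged from 1.49 to 2.69 over the 16 alternatives, both when a single library was left out, and that of ARRDC4 from 1.09 (pseudocount of 1) to 1.90, with 1.14 to 1.90 when a single library was left out. HKlincR1 was at -2.59 in the main fit (limma adjusted p = 0.00245) and ranged from -2.80 to -1.61. It was called lower in the main fit and in every alternative. The 6 members chosen by family were not called in any alternative, and MLXIPL was not tested under a filter of 1 RPKM. The replicate block left the values of the members as they were and changed no other call than those given beside the results (RGS16, MYC and TXNRD1).

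Counts over all genes depended on the processing. Against 1 higher and 55 lower, the replicate block, which pairs same-numbered libraries, gave 79 and 125. A pseudocount of 0.01 gave 0 higher, no filter on low values gave 12 and 34, no mean-variance trend 16 lower and voom 2 (MKNK2 and ENSG00000257674) and 87. Leaving out 1 library gave 0 to 205 higher and 7 to 315 lower, the highest both without siHKlincR1 replicate 3. Alternatives chosen after seeing the data gave 181 and 259 without both replicate 3 libraries, and 160 and 264 by voom with the block. The cause was not tested. The 1 gene called higher, named after its value was seen, was the noncoding AP002789.1, at 0 RPKM in the siNT libraries. With 3 libraries a group, small differences of the members remain within the intervals given.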
